A study of Arabidopsis thaliana with 12 samples.

Results

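DEMETER (DME, AT5G04560) and STERILE APETALA (SAP, AT5G35770) are 2 regulators of plant reproduction, described here in the Arabidopsis thaliana mutant mak3 and in wild type (WT). They were taken as the probes that the platform annotation assigns to one of these genes alone, which gave 1 probe each, number 1919 for DME and number 1632 for SAP. These are 2 of 689 genes of the gene table with a probe of their own, on arrays of 3439 probes. DME was chosen by the small p value of its mak3 minus WT difference on these arrays, and SAP as a gene of flower development once its own difference was known. Those differences are therefore a description, with no test. The 6 arrays of mak3 carry total RNA of a mutant in the Columbia 0 ecotype that is impaired in a cytoplasmic N-acetyltransferase, and the 6 arrays of WT carry total RNA of Columbia 0 plants. The sources used here give no allele, age, tissue or growth condition.

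DME encodes a DNA glycosylase that cuts methylated cytosine out of DNA, the first step of active DNA demethylation in plants. It is known for acting in the central cell of the female gametophyte, where it allows maternal alleles of imprinted genes such as MEA, FIS2 and FWA to be expressed, and seeds abort when the maternal allele of DME is lost. SAP encodes an F-box protein required for the development of inflorescences, flowers and ovules. It is the substrate-binding part of a ubiquitin ligase that marks the PEAPOD and KIX repressor proteins for degradation and so promotes the growth of organs.

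Each array gave 1 intensity for each probe, with a mean between 0.946 and 1.05 and a median between 0.420 and 0.605 on an array. Within a genotype, the arrays numbered 1 and 2, 3 and 4, or 5 and 6 shared their deviations from the mean (r = 0.758 to 0.883 across probes, against at most -0.06 for all other combinations). Each such pair was averaged and counted as 1 sample, giving n = 3 in mak3 and in WT. The labels do not state that samples came from separate plants, so their spread may be technical. No probe names MAK3 alone, and its transcript was not analysed here. Of 8 leaf markers 4 had a probe of their own, and over the arrays their percentiles were 98.7 to 99.3 for LHB1B2, 96.8 to 98.7 for PSAN, 65.4 to 82.4 for SBPASE and 51.5 to 88.8 for PRK, which does not settle the tissue. Of the 8 genes in each of the lists of seed storage markers and of pollen and anther markers, 0 had a probe of their own.

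DME was read at a middle intensity in every sample. As deposited, it averaged 0.630, 0.479 and 0.453 in the mak3 samples of pairs 1-2, 3-4 and 5-6, against 0.524, 0.478 and 0.542 in the WT samples of the same pairs. The mak3 sample was thus the brighter of its pair in pair 1-2, equal to WT within the gap between repeat readings in pair 3-4, and the dimmer in pair 5-6. Over the 3 samples the deposited intensity was 0.521 ± 0.0956 in mak3 and 0.515 ± 0.0334 in WT (SD, n = 3 each). The genotypes overlapped on this scale, and 2 of 6 mak3 arrays lay above every WT array (all 6 did for 0.727% of all probes). Over all probes, the median was 0.598 and 0.599 on the mak3 arrays of pair 1-2, against 0.579 and 0.585 on the WT arrays. It was 0.490 and 0.492 against 0.564 and 0.559 in pair 3-4, and 0.420 and 0.421 against 0.605 and 0.605 in pair 5-6. In pair 5-6 DME and this median were thus both lower in mak3.

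The place of DME among the probes of its own array separated the genotypes where the deposited intensity did not. This percentile is the same under any factor that multiplies a whole array. It was 52.9, 48.4 and 54.4 in the mak3 samples of pairs 1-2, 3-4 and 5-6, against 44.4, 40.3 and 43.3 in the WT samples. On single arrays it went from 47.0 to 56.3 with a median of 51.6 in mak3, and from 38.2 to 45.3 with a median of 42.9 in WT. The lowest mak3 array was therefore above the highest WT array. On the quantile-normalized scale given next, all 6 mak3 arrays lay above all 6 WT arrays for 1.16% of all probes. DME was chosen by its small p value, so this separation belongs to the choice. A probe's place depends on how well it hybridises as well as on its transcript, so it ranks no transcript by abundance.

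After quantile normalization, which gives all arrays the same distribution of intensities, DME was higher in mak3 in all 3 pairs. Its log2 level was -0.81, -0.92 and -0.78 in the mak3 samples of pairs 1-2, 3-4 and 5-6, against -1.02, -1.13 and -1.05 in the WT samples. The 6 mak3 arrays all lay above the 6 WT arrays, as did those of 1.16% of all probes on this scale. This scaling keeps the order of probes within an array, so it is the same separation as that in percentile. The mak3 minus WT difference was 0.21, 0.21 and 0.27 by pair, with a mean of 0.23 ± 0.04 (SD over 3 pairs), which is a 1.17-fold higher level in mak3. A difference above 0 in all 3 pairs was found for 16.3% of all probes.

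SAP was read at a low intensity in every sample, and 0 of its 12 values were at 0 or at the lower limit set on the values. As deposited, it averaged 0.208, 0.232 and 0.134 in the mak3 samples of pairs 1-2, 3-4 and 5-6, against 0.188, 0.205 and 0.150 in the WT samples. The samples of pair 5-6 were the dimmest of both genotypes, and the genotypes overlapped. Over the 3 samples the deposited intensity was 0.191 ± 0.0510 in mak3 and 0.181 ± 0.0282 in WT (SD, n = 3 each).

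The percentile of SAP on its array was 12.8, 16.3 and 10.6 in the mak3 samples of pairs 1-2, 3-4 and 5-6, against 11.8, 11.2 and 7.97 in the WT samples. On single arrays it went from 10.4 to 17.9 with a median of 12.8 in mak3, and from 7.71 to 12.9 with a median of 10.8 in WT. Within pairs 3-4 and 5-6 both mak3 arrays were above both WT arrays, while in pair 1-2 the arrays of the genotypes interleaved. Across pairs the genotypes overlapped, since the mak3 arrays 5 and 6 were below all 4 WT arrays of pairs 1-2 and 3-4.

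On the quantile-normalized log2 scale SAP was at -2.29, -2.03 and -2.51 in the mak3 samples of pairs 1-2, 3-4 and 5-6, against -2.38, -2.44 and -2.93 in the WT samples. The mak3 minus WT difference was 0.08, 0.42 and 0.42 in pairs 1-2, 3-4 and 5-6, with a mean of 0.31 ± 0.19 (SD over 3 pairs), a 1.24-fold higher level in mak3. The mean difference of SAP was larger than that of DME on this scale. With no lower limit and 0.1 added to each value, the mean was 0.198 for SAP and 0.192 for DME. With the medians of neighbouring probes taken off, as given below, it was 0.188 for SAP and 0.204 for DME. Of the 6 mak3 arrays of SAP, 3 lay above every WT array, and the share of all probes with as many was not counted. For DME all 6 did, but DME was chosen by its small p value. Without pair 5-6 in both genotypes the mean difference of SAP was 0.25. It was 0.13 without the WT sample of pair 5-6 alone and 0.42 without the mak3 sample alone, but leaving out 1 side unbalances the pairs, and both genotypes were dimmest there.

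**Figure D1:**
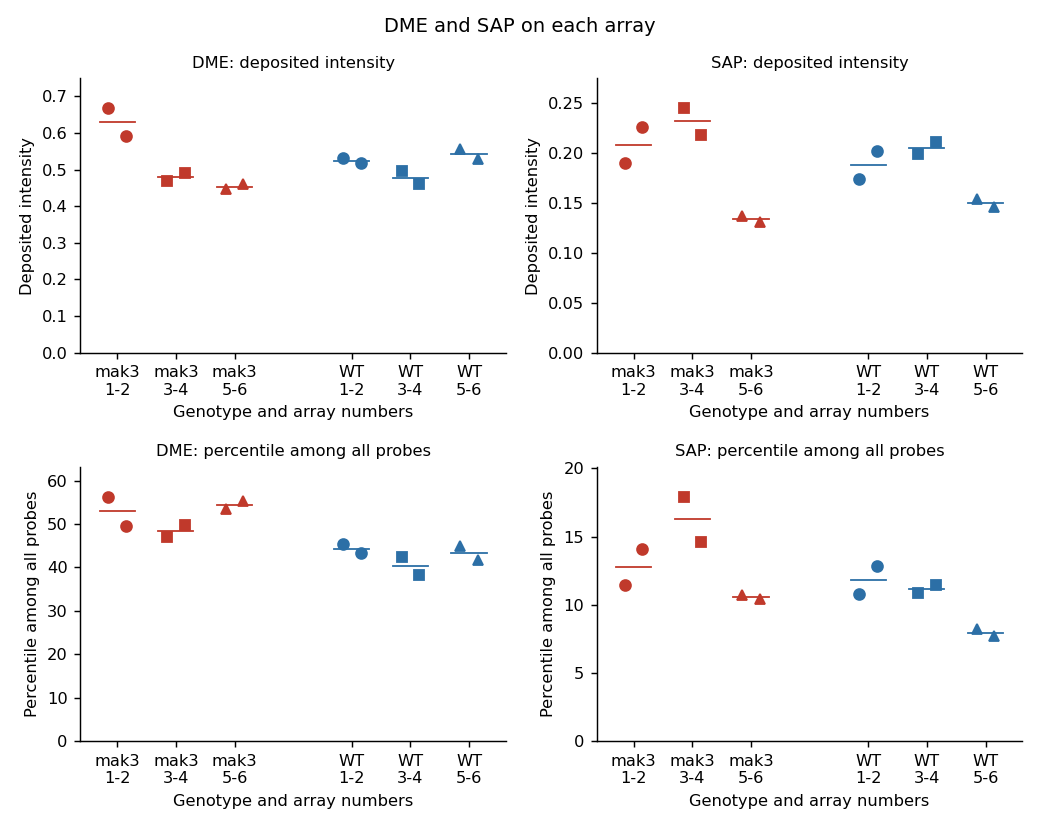
Deposited intensity (upper panels) and percentile among the 3439 probes of the same array (lower panels) of DME (left) and SAP (right). Each point is 1 array, mak3 in red and WT in blue, with circles for arrays 1 and 2, squares for 3 and 4 and triangles for 5 and 6, and each line is the mean of a pair. The genotypes overlap in intensity for both genes, and in percentile the lowest mak3 array of DME (47.0) is above its highest WT array (45.3). After quantile normalization all 6 mak3 arrays lie above all 6 WT arrays for 1.16% of all probes.

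With limma over the whole table, which tests each probe and adjusts p by the Benjamini-Hochberg method, 0 of 3439 probes passed in mak3 against WT at an adjusted p under 0.05, a share of 0%. Before adjustment 135 probes, or 3.93%, had a p under 0.05. DME and SAP were thus 0 of 2 called. A fit blocked by pair number also called 0 probes in limma (462 at an unadjusted p under 0.05).

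The spread between samples of a genotype was small for DME and larger for SAP. The SD between samples, pooled over the genotypes, was 0.07 on the log2 scale for DME and 0.27 for SAP, and its median over the 3205 probes that were never at the lower limit was 0.34. Only 0.312% of these probes had a smaller SD than DME. A small spread lowers p, and p chose DME, so this value belongs to the choice. For DME the repeat readings of 1 sample lay 0.04 to 0.16 apart in mak3 and 0.05 to 0.11 apart in WT. Its pair differences of 0.21 to 0.27 between the genotypes were larger, which also belongs to the choice. The share of all probes with pair differences above their reading gaps was not counted. For SAP the repeat readings lay 0.04 to 0.24 apart in mak3 and 0.07 to 0.21 apart in WT. Its difference of 0.08 in pair 1-2 was smaller than the 0.24 and 0.21 between its repeat readings in that pair.

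The differences of both genes lay well inside the range of all probes. DME had a higher difference than 78.7% of the probes in pair 1-2, 75.1% in pair 3-4 and 77.4% in pair 5-6. SAP had a higher difference than 65.7%, 89.1% and 86.9% of the probes in these pairs. By the mean over pairs, DME was number 608 and SAP number 439 from the top of 3439 probes. The SD of the differences over all probes was 0.45, 0.39 and 0.45 in pairs 1-2, 3-4 and 5-6, so every pair difference of DME was smaller than it. The difference of SAP was larger than it in pair 3-4 (0.42) and smaller in pairs 1-2 and 5-6.

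**Figure D2:**
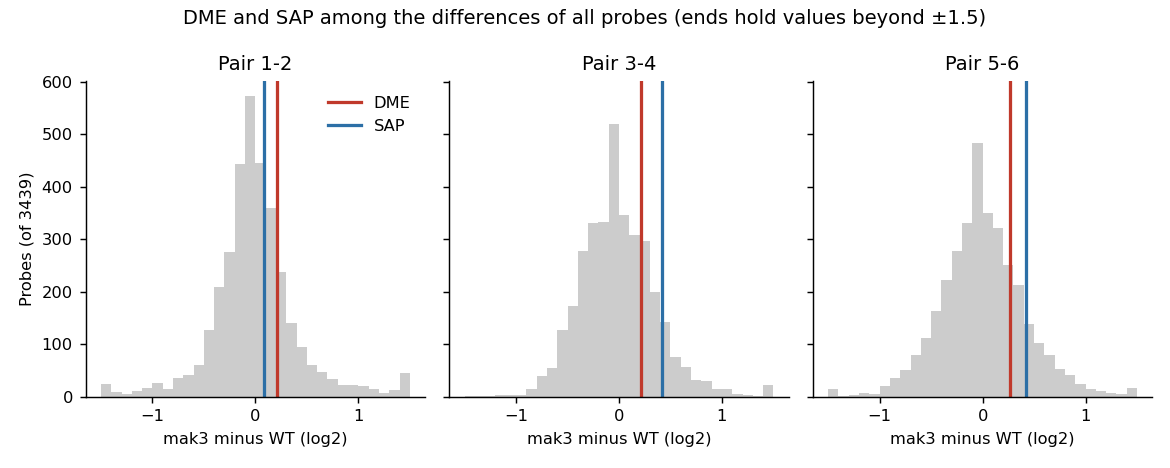
Number of probes by mak3 minus WT difference on the quantile-normalized log2 scale, in steps of 0.1, for each array pair, with the end bars holding all values beyond 1.5 in either direction. The red line marks DME (0.21, 0.21 and 0.27) and the blue line SAP (0.08, 0.42 and 0.42), with between 65.7% and 89.1% of the probes below them.

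The size of the differences, and their sign in pair 5-6, depended on how the arrays were put on a common scale. With the values as deposited the difference of DME was 0.26, 0.01 and -0.26 in pairs 1-2, 3-4 and 5-6, with a mean of 0.00. That of SAP was 0.15, 0.17 and -0.16, with a mean of 0.05. The median difference of all probes was -0.19 with the values as deposited, and relative to it DME was at 0.19 and SAP at 0.24. On this scale a difference above 0 in all 3 pairs was found for 6.78% of all probes. One above 0 in pair 1-2 and below 0 in both other pairs, which neither gene had, was found for 34.7%. The share of probes with the signs of DME and SAP was not counted.

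All 4 scalings of the arrays, quantile normalization included, gave both genes a positive difference in each pair, and the values as deposited did not. The 4 scalings use the same arrays. Among them, the share of all probes above 0 in all 3 pairs was counted for quantile normalization only (16.3%). With a common median for all arrays, DME was at 0.22, 0.20 and 0.27 by pair and SAP at 0.11, 0.37 and 0.36. With a common 75th percentile DME was at 0.19, 0.16 and 0.18, and SAP at 0.08, 0.32 and 0.28. With cyclic loess, which removes differences that depend on intensity, DME was at 0.22, 0.22 and 0.30 and SAP at 0.06, 0.40 and 0.54. For SAP pair 1-2 was the lowest under all 4. For DME the highest pair was 5-6 under quantile, common median and cyclic loess scaling, and pair 1-2 under the common 75th percentile.

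**Figure D3:**
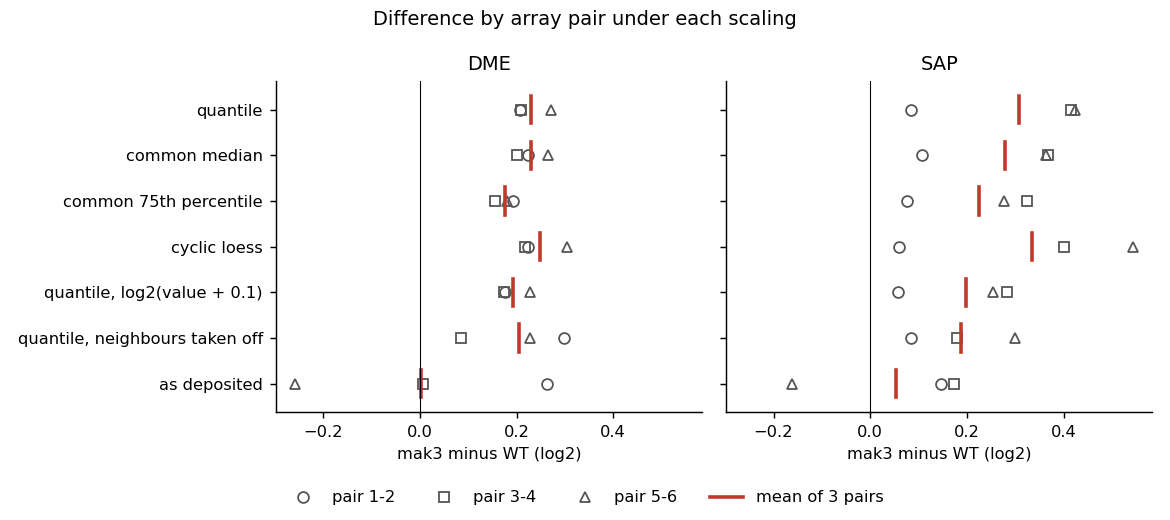
Mak3 minus WT difference (log2) of DME (left) and SAP (right) by array pair under 7 treatments of the values, with open symbols for the pairs and a red bar for their mean. The DME mean is 0.23 with quantile normalization and 0.00 as deposited, where pair 5-6 is at -0.26. The SAP mean is 0.31 with quantile normalization and 0.05 as deposited.

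Probe numbers place the genes among other probes, and neighbouring numbers gave alike differences over the whole table. Between probes 1 number apart Spearman's rho of the differences was 0.140, 0.443 and 0.376 in pairs 1-2, 3-4 and 5-6 (2558 pairs of probes, which share the array). The numbers of DME and SAP are 287 apart, and among the steps from 100 to 400 the highest such rho was at 288 in pairs 1-2 and 3-4 and at 287 in pair 5-6. Between probes 287 apart rho was 0.105, 0.383 and 0.314 in the 3 pairs (2401 pairs of probes), against -0.05, -0.06 and -0.14 for probes 144 apart. The part of this likeness in the differences of DME and SAP was not tested.

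Among the 48 probes nearest to DME by number, 24 on each side, the median difference was -0.09, 0.12 and 0.04 in pairs 1-2, 3-4 and 5-6. DME was above these medians in all 3 pairs, and 5, 21 and 13 of the 48 probes had a higher difference than DME in pairs 1-2, 3-4 and 5-6. With the medians taken off, DME was at 0.30, 0.09 and 0.23, with a mean of 0.20. Some of these neighbours were at the lower limit on at least 1 array, 8 of 48 or 16.7%, against 6.80% of all probes. When they were left out of the medians, the mean difference of DME was 0.15 and that of pair 3-4 was -0.03.

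Among the 48 probes nearest to SAP the median difference was 0.00, 0.24 and 0.12 in pairs 1-2, 3-4 and 5-6. In these pairs 10, 9 and 7 of the 48 probes had a higher difference than SAP. Like the differences of SAP, these medians were lowest in pair 1-2. With them taken off, SAP was at 0.08, 0.18 and 0.30, with a mean of 0.19. At the lower limit on at least 1 array were 11 of the 48 neighbours of SAP, or 22.9%. Without these SAP was at 0.13, 0.13 and 0.24 by pair, with a mean of 0.17.

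**Figure D4:**
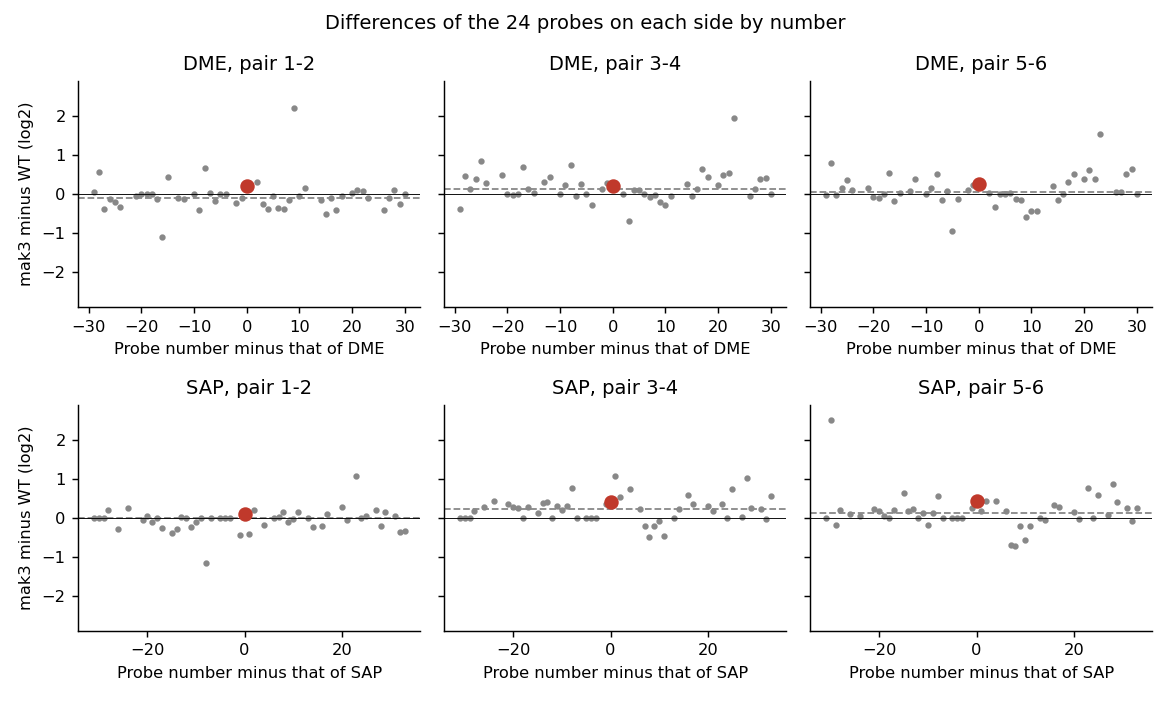
Mak3 minus WT difference (quantile-normalized log2) of DME (upper row) and SAP (lower row), as red points, and of the 24 probes on each side by number, as grey points, for each array pair. The x axis is the probe number minus that of the gene, and the dashed line is the median of the neighbours, which is 0.12 for DME and 0.24 for SAP in pair 3-4.

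Of the other genes of active DNA demethylation, 1 of 15 had a probe of its own. This was ZDP (AT3G14890, probe 1636), a DNA phosphatase that works after glycosylases such as DME by trimming the ends of the break in the DNA. Its quantile-normalized log2 level was -1.77, -2.11 and -1.81 in the mak3 samples of pairs 1-2, 3-4 and 5-6, against -1.59, -2.86 and -2.24 in the WT samples. All 3 mak3 samples lay between the WT samples of pairs 1-2 and 5-6, so the genotypes overlapped. The difference was -0.18, 0.75 and 0.44 by pair, with a mean of 0.33 ± 0.47 (SD over 3 pairs), and ZDP did not pass the test over all probes. Its probe is 4 numbers from that of SAP, and like SAP it had its lowest difference in pair 1-2. The lists of DNA methylation (23 genes) and of imprinted targets of DME with the FIS Polycomb complex (11 genes) had 0 genes with a probe of their own.

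Among 33 genes of floral identity and flower development, SAP and SPL (AT4G27330, probe 728) had a probe of their own, and 3 more were named only together with other genes and are not given. SPL, also called SPOROCYTELESS or NOZZLE, encodes a regulator needed for the formation of the sporogenous cells in anthers and ovules. Its log2 level was -0.42, -0.60 and -0.73 in the mak3 samples of pairs 1-2, 3-4 and 5-6, against -0.55, -0.85 and -1.01 in the WT samples. In each pair the mak3 sample was the higher, as for 16.3% of all probes, and across pairs the genotypes overlapped. In pair 1-2 the repeat readings of WT lay 0.31 apart, and WT array 1 (-0.39) was above both mak3 arrays (-0.42 each). The difference was 0.13, 0.25 and 0.28 by pair, with a mean of 0.22 ± 0.08 (SD over 3 pairs), and SPL did not pass the test over all probes. With the values as deposited its mean was -0.01, or 0.18 relative to the median of all probes. Of the other 15 genes listed for the SAP ubiquitin ligase, its substrates and organ size, 0 had a probe of their own.

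**Figure D5:**
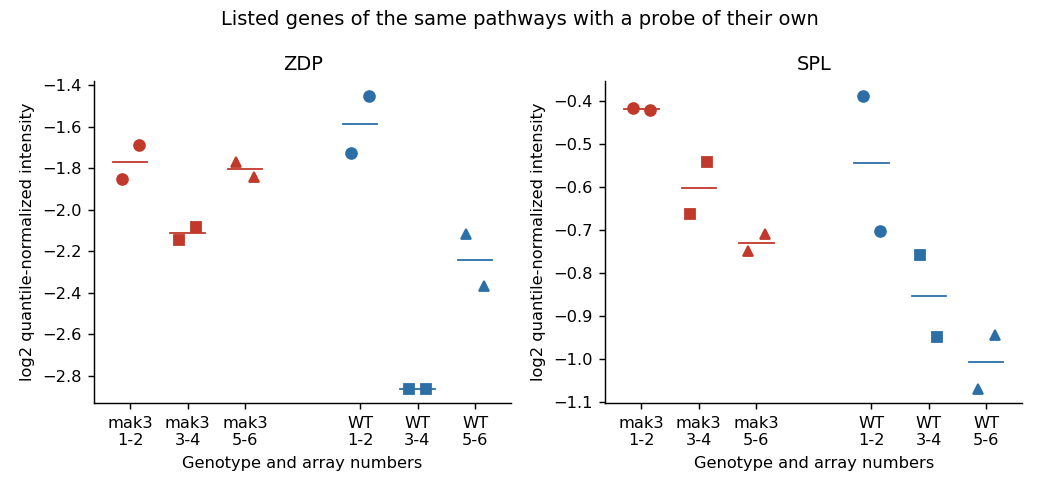
Quantile-normalized log2 intensity of ZDP (left) and SPL (right) on each array, mak3 in red and WT in blue, with symbols for the array pairs and lines for their means. The WT sample of pair 3-4 is the lowest of ZDP (-2.86), and both genes overlap between the genotypes.

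DME and SAP were only weakly alike across the 6 samples. Their Pearson's r over these samples was 0.322 as a description, and SAP stood at place 155 of 641 named genes ordered by likeness to DME. DME stood at place 216 of 641 by likeness to SAP. The genes most like DME were AT5G66090 (r = 0.916), AT3G25840 (r = 0.898), a protein kinase of the PRP4 type, and PRA1.B3 (r = 0.894), of the prenylated Rab acceptor family. Their mean differences were 0.34, 0.69 and 0.38. The genes most like SAP were AT1G01500 (r = 0.986), Cpn60beta3 (r = 0.965), a subunit of the plastid chaperonin, and AT5G63490 (r = 0.963). Their mean differences were 0.11, 0.54 and 0.50. These correlations rest on 6 samples, and the genes compared share arrays and scaling. The genes were picked by r, so the height of r and the pair pattern they share with DME or SAP follow from the choice.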

How the data were processed

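The deposited table holds 1 intensity per probe and array for 12 arrays of total RNA. The authors deposited these intensities with a mean near 1 on each array, and they were taken as linear from their values, which are never negative and hold exact zeros. The sources used here name no scanner, background correction or scaling by the authors, so scale and centre stay unknown. Precision is limited by the number of arrays. Genotype and array number came from the labels. Probes were named by the platform annotation, with symbols brought up to date by gene ID: 692 probes name 1 gene, 870 several and 1877 are unnamed here. No genome build is named, so no coordinates are given.

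The medians of the arrays differed by 44.1%, so arrays were quantile-normalized (limma 3.58.1, R 4.3.3). Values under the 1st percentile of positive values (0.0412, or -4.60 in log2) were raised to that limit (168 probes on every array), log2 was taken and repeat readings were averaged. Every probe was tested with limma, two-sided, without the pair number. The deviations of mak3 and WT samples of one pair number correlated across probes (r = 0.602, 0.557 and 0.739), so from the data the numbers pair the samples. The fit was tested on simulated data. The members and gene lists were chosen with earlier results of these data known. Besides the members, named genes were those of 9 lists with a probe of their own and, for each member, the 3 with the highest Pearson's r over the 6 samples. Of 129 listed genes, 8 had such a probe. Of the 4 leaf markers with one, 1 was higher in mak3 and 3 were lower (median -0.22, 0 called). The list of 7 N-terminal acetyltransferases had none.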

Additional observations from a re-analysis of the deposited data

How the results depend on the processing

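When any array, sample or pair was left out (21 settings), the mak3 minus WT difference of DME was 0.20 to 0.27. That of SAP was 0.13 to 0.42, against 0.31 with all arrays (0.25 to 0.41 without a whole pair). DME was chosen by its small p value, so its narrow range belongs to the choice. Among 11 other alternatives DME was at 0.0034 in the values as deposited and at 0.15 with the neighbour median taken off without probes at the lower limit, an alternative chosen after seeing the data. SAP was at 0.05 in the values as deposited and at 0.20 with no floor and a pseudocount of 0.1. With the floor at the 5th percentile SAP was at 0.26, and only its pair 5-6 changed, from 0.42 to 0.27. SAP was at 0.19 and 0.17 with the neighbour medians taken off with and without probes at the floor. With the pair number as a replicate block the differences stayed at 0.23 and 0.31 and 0 probes were called. With 12 arrays as separate samples limma called 24 probes, against 0 under every other setting, since each sample then counts more than once. Without the dimmest 20% of the probes the mean percentile of DME was 39.9 in mak3 and 28.6 in WT, since fewer dim probes lie below it, and SAP is itself among the probes left out. Before adjustment 135 probes had a p under 0.05, 70 to 543 under the other alternatives, and 26 without pair 3-4 to 465 without pair 1-2. No background signal was at hand, so whether SAP lay above background is not known.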
